A study of Rattus norvegicus with 4 samples.

Results

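The 5 genes described here encode regulators of growth signalling and transcription whose cDNA clones gave low ratios in the livers of ciprofibrate-treated rats: Akt2, Dusp1, Id4, Nab2 and Mycn. Every spot whose listed gene symbol was one of the 5 was taken, which gave 9 of the 7688 spots on the array and 6 clones, and each clone was kept apart. The genes were chosen by their low mean ratios in this same comparison, so the ratios below describe them and were not tested. Each of 4 two-colour cDNA arrays set liver total RNA of 1 female Fischer rat, given ciprofibrate at 50 mg per kg of body weight daily for 60 days, against a single liver RNA pool from 5 control rats. Ciprofibrate is a fibrate drug and a peroxisome proliferator that activates the nuclear receptor PPARα in rodent liver. The age of the rats, the vehicle and the genotype beyond the Fischer strain are not given in the labels. The labels speak of 4 treated rats without saying which is on which array. The arrays were read as 4 separate animals, and if any animal was shared the spread is technical; replicates 1 to 4 only name the arrays. No control sample was hybridised on its own, so the spread between control rats enters no value here.

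Akt2 is a serine-threonine kinase that carries the insulin signal from PI3-kinase to glucose and lipid metabolism, and it is an abundant Akt form in liver. Dusp1 is a dual-specificity phosphatase that switches off MAP kinases and is itself an immediate early gene, transcribed within minutes of a growth or stress signal. Nab2 is a corepressor that binds EGR transcription factors and is induced by them, closing a feedback loop. Id4 lacks a DNA-binding domain and holds helix-loop-helix factors away from DNA. Mycn is a member of the MYC family, which pairs with MAX at E-box sequences and drives ribosome production and cell growth. It is best known from the developing nervous system and from tumours. In bulk liver RNA, fewer cells of a type and less RNA per cell cannot be told apart.

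The upstream sequences of Dusp1 and Id4 are shown because these genes include the lowest mean and the lowest single-spot clone among the 5, and because Dusp1 holds elements of the pathways described. The letters are the 250 bases before the start site in RefSeq's annotation of the GRCr8 assembly, 5′ to 3′ on the gene's strand, at chr10:17184603-17184852 (plus strand) for Dusp1 and chr17:16598294-16598543 (minus strand) for Id4. Capitals mark matches to any of the 8 motifs searched.
Dusp1: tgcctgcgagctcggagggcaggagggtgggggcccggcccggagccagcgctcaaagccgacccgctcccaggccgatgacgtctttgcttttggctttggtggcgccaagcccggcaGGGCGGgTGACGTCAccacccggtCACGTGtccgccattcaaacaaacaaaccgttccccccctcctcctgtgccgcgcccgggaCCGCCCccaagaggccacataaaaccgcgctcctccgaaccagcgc
Id4: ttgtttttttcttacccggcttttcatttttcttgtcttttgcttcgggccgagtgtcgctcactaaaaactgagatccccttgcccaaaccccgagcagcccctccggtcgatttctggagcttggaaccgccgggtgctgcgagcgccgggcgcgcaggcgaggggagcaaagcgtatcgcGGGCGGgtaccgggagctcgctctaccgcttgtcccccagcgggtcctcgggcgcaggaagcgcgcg

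The search ran on both strands over windows of 300 bases, 250 before and 50 after the start site, for 27457 promoters, 1 per gene. Windows were found for Akt2, Dusp1, Id4 and Nab2. The window of Dusp1 held the cyclic AMP response element TGACGTCA at position -124 from the start site and the MYC and MAX E-box CACGTG at -107. Of all promoters, 1.91% held the first and 6.65% the second. It also held the GC box GGGCGG at 3 places, and that of Id4 at 1 place, a motif in 34.9% of promoters. The window of Akt2 held the E-box CAGCTG of the E proteins, which Id proteins bind, at 2 places (15.1% of promoters) and the TATA box TATAAA at 1 place (14.3%). None of the 4 windows held the EGR site GCGNGGGCG (5.29% of promoters), the forkhead site GTAAACA (3.76%) or the direct repeat bound by peroxisome proliferator receptors (0.0583%). The window of Nab2 matched none of the 8 motifs. The letters of the EGR site and the GC box can overlap, and a match says only that the letters occur in the window. The base composition differed between the windows, with 73.3% G and C for Nab2, 68% for Dusp1, 65% for Id4 and 49.7% for Akt2 against a median of 52.3% over all promoters.

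Ratios are given as log2 of the deposited ratio after each array was centred on its median, so that a value of -1 is a ratio of 1 to 2. The treated liver is the first channel in the labels and the dyes are not stated, so a negative value is read as likely lower in the treated rats. A panel of 24 textbook peroxisome proliferator genes bears on that reading. Of its 11 measured genes, 7 had a mean above 0 and 4 below, and 4 of the first and 1 of the second passed limma's test, where 17.1% of all genes were called positive and 16.6% negative. The split was 7 to 4 with each single array left out and with slide position removed, and 8 to 3 with array weights. The calls were fewer in some of these, 2 positive and 1 negative with slide position removed and 2 and 0 without replicate 3. The direction is therefore likely and not settled.

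Over the whole table, 6499 to 6517 spots per array carried a measured ratio, and 4704 clones had one on all 4 arrays. Correlations over spots between replicate 2 and replicates 1, 3 and 4 were 0.46, 0.53 and 0.49. Those among replicates 1, 3 and 4 ran from 0.67 to 0.76, so replicate 2 was the array least like the others. With limma and a Benjamini-Hochberg adjusted p under 0.05, 638 clones (13.6%) were called positive and 706 (15%) negative. With a smooth surface over slide position removed from each array, the counts were 134 (2.85%) and 531 (11.3%). A mean of -1 or lower was found for 129 clones (2.74%) and a mean of 1 or higher for 12, so low ratios were more common than high ones. Of the tested hepatocyte markers 7 of 8 lay below 0 (median -0.44, 2 called negative; mean over the markers from -0.83 to -0.11 across the arrays), and of the red blood cell markers 2 of 3 (median -0.73, both called negative; -0.62 to -0.36 across the arrays). Of the stellate cell and fibroblast markers 5 of 8 lay above 0 (median 0.25, 3 called positive and 1 negative; 0.11 to 0.19 across the arrays). Of the 3 Kupffer cell and macrophage markers 1 was called positive and 1 negative (-0.48 to 0.02 across the arrays), as was the case for the 2 endothelial ones (-0.85 to 0.28). The single cholangiocyte marker, Spp1, was called positive at 0.43 (0.32 to 0.58), and no lymphocyte marker of the list was measured. A ratio holds no level, so the tissue's identity could not be checked, and the part of cell composition in the members' ratios was not tested.

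Dusp1 had the lowest mean of the 5 genes. Its clone, the mean of 2 spots, was at -1.58, -2.44, -1.44 and -1.11 on replicates 1 to 4. All 4 arrays lay below -1, and replicate 2 was the lowest by 0.86. The mean was -1.64 ± 0.56 (SD, n = 4), a 3.12-fold lower ratio, which ranked 20 from the lowest among the 4704 clones. Without replicate 2 the mean was -1.38. The arrays differed in part through the spots, since the first spot was at -1.15, -2.95, -1.24 and -1.61 and the second at -2.00, -1.93, -1.65 and -0.62. Each spot was thus below 0 on every array, while the array that was lowest at the first spot was not the lowest at the second.

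Akt2 was represented by 2 different clones that disagreed. The clone printed at 2 spots was at -1.26, -1.86, -1.58 and -1.54, with a mean of -1.56 ± 0.25 (SD, n = 4), a 2.94-fold lower ratio and rank 25 from the lowest. The clone printed at 1 spot was at -0.38, 0.06, -0.62 and -0.46, with a mean of -0.35 ± 0.29 and rank 928. The values of the clones did not overlap, and on each array the first was lower, with differences of -0.88, -1.91, -0.96 and -1.07. The mean difference was -1.21 ± 0.48 (SD, n = 4). It was not tested, since the first clone was chosen for its ratio, and 4 arrays allow no exact sign-flip p under 0.125. Both clones lay in the same inferred printing block. Of 59 genes with exactly 2 measured clones, 4 (Akt2 included) differed by at least as much, and the median absolute difference was 0.38. The low ratio of Akt2 therefore rests on 1 of its 2 clones, and which of them reports the Akt2 transcript was not tested, since no clone sequence was at hand. With slide position removed, the second clone was at -0.13 ± 0.18 and the first at -1.47 ± 0.24, so that the second moved most of the way to 0.

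Id4 was the most variable of the clones that had only 1 spot. It was at -1.68, -0.83, -2.31 and -1.24, lowest on replicate 3 and highest on replicate 2. The mean was -1.52 ± 0.63 (SD, n = 4), a 2.86-fold lower ratio that ranked 28 from the lowest. Its place on the slide moved with that value. Of the spots within 2 columns and 2 rows in the same block, the median ratio was -0.47, -0.19, -1.76 and -0.64 on replicates 1 to 4, and on replicate 3 the ratio was below -1 at 13 of 18 measured neighbours. On replicates 1, 2 and 4 this was so at 5 of 16, 2 of 15 and 2 of 17. Averaged over the arrays, 3 of 15 neighbours were lower than Id4. With the position surface removed Id4 was at -1.52, -0.74, -1.78 and -0.76, a mean of -1.20 ± 0.53, and without replicate 3 it was at -1.25. The ratio was negative on all arrays in either case. On replicate 3, however, the surface at Id4 was at -0.53, nearer to 0 than the neighbour median of -1.76. Its removal therefore did not take out all of the low local level there. The part of slide position in the ratio of Id4 was not tested further.

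Nab2 was the steadiest of the 5 genes between arrays, but it had only 1 spot, so disagreement between spots could not be seen. Its spot was at -1.32, -1.11, -1.32 and -1.24, and the arrays lay within 0.21 of each other. The mean was -1.24 ± 0.10 (SD, n = 4), a 2.37-fold lower ratio and rank 70 from the lowest, against a median SD of 0.21 over all clones. Nab2 lay in the same inferred block as Id4, among neighbours with medians of -0.0024, 0.04, -0.12 and -0.35, and 1 of 17 neighbours measured on every array had a lower mean. The means of those neighbours ran from -1.80 to 1.89. On replicates 1 to 4 the ratio was below -1 at 2 of 18, 3 of 18, 4 of 19 and 3 of 18 measured neighbours of Nab2. With the position surface removed Nab2 was at -1.11 ± 0.12.

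Mycn had a mean close to that of Nab2, and spots that disagreed widely on replicates 2 and 4. The clone was at -1.49, -0.88, -1.23 and -1.23, with a mean of -1.21 ± 0.25 (SD, n = 4), a 2.31-fold lower ratio and rank 78 from the lowest. Its first spot was at -1.65, -0.13, -1.42 and -1.90 and its second at -1.33, -1.63, -1.04 and -0.55. On replicate 2 the second spot alone was low, and on replicate 4 the first spot was much the lower. The steadiness of the clone mean thus came from averaging spots that differed in opposite directions. With the position surface removed the mean was -1.52 ± 0.40, lower than with it.

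**Figure D1:**
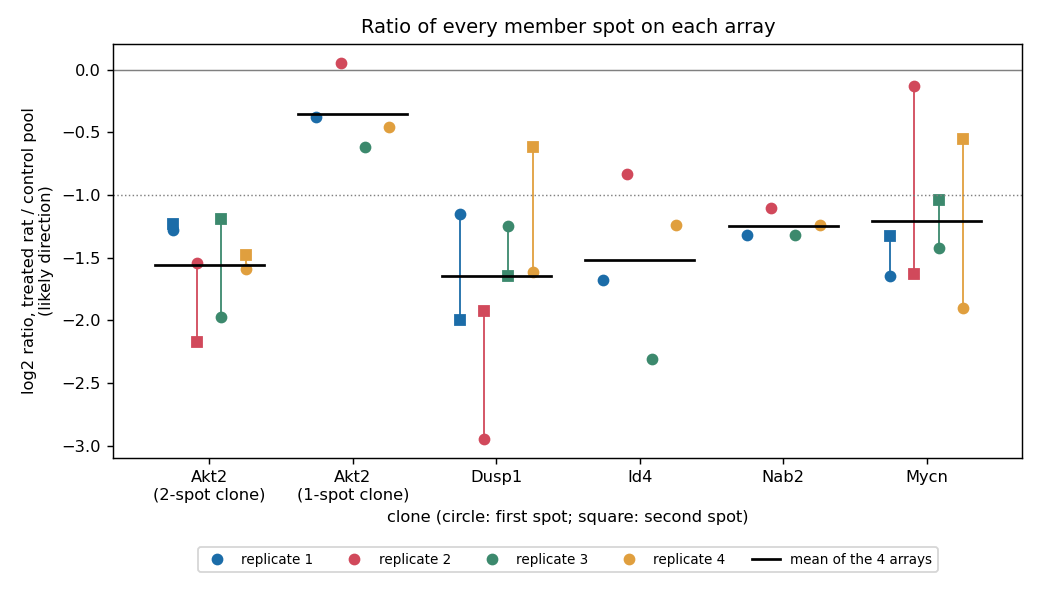
Log2 ratio (y axis, likely treated rat over control pool) of the 9 spots of the 6 clones (x axis) on the 4 arrays, coloured by replicate; circles are first and squares second spots, vertical lines join the spots of a clone on an array, black bars are clone means and the dotted line marks -1. The Akt2 clone with 1 spot averages -0.35 while the other 5 clones average between -1.64 and -1.21, and the spots of Mycn stand 1.50 apart on replicate 2.

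A negative ratio on all 4 arrays was found for 5 of the 6 clones, all but the Akt2 clone with 1 spot, and for 25.6% of all clones. Means of -1 or lower were found for the same 5, against 2.74% of all clones. The members were picked for such ratios, so nothing is read from either share. Ordered by their means, most neighbours differed by less than the SD of either. Dusp1, Akt2 (the clone with 2 spots) and Id4 were 0.09 and 0.04 apart, and Nab2 and Mycn 0.04. The gap between Id4 and Nab2 was 0.27, less than the SD of Id4 and more than that of Nab2. The order changed with the position surface removed. The low clones then ran from Dusp1 (-2.02) through Mycn (-1.52), Akt2 (-1.47) and Id4 (-1.20) to Nab2 (-1.11), and Nab2 and Mycn were no longer close.

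Clones printed at 2 spots show the technical error of a ratio. Over 1617 to 1621 pairs of spots of a clone, the median absolute difference was 0.08, 0.08, 0.08 and 0.09 on replicates 1 to 4, and the 95th percentile 0.47, 0.48, 0.42 and 0.53. The spots of Mycn differed by 0.32, 1.50, 0.38 and 1.34, at percentiles 90.7, 99.6, 93.8 and 99.3 of all pairs. Those of Dusp1 differed by 0.85, 1.02, 0.40 and 0.99, at percentiles 98.4, 99.0, 94.5 and 98.6. Those of Akt2 differed by 0.05, 0.63, 0.78 and 0.11, at percentiles 33.9, 96.8, 98.8 and 54.9. Dusp1 thus lay beyond the 95th percentile on 3 arrays, and Mycn and Akt2 on 2 arrays each. Wide differences were common to low clones: the 27 clones with 2 spots and a mean of -1 or lower had medians of 0.32, 0.31, 0.41 and 0.70, against 0.08, 0.08, 0.08 and 0.10 for the 346 clones with means within 0.1 of 0. Of those 27, 16 had both spots below -1 in mean, as had Akt2, Dusp1 and Mycn. The table holds no intensities, so whether these spots were dim was not tested.

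**Figure D2:**
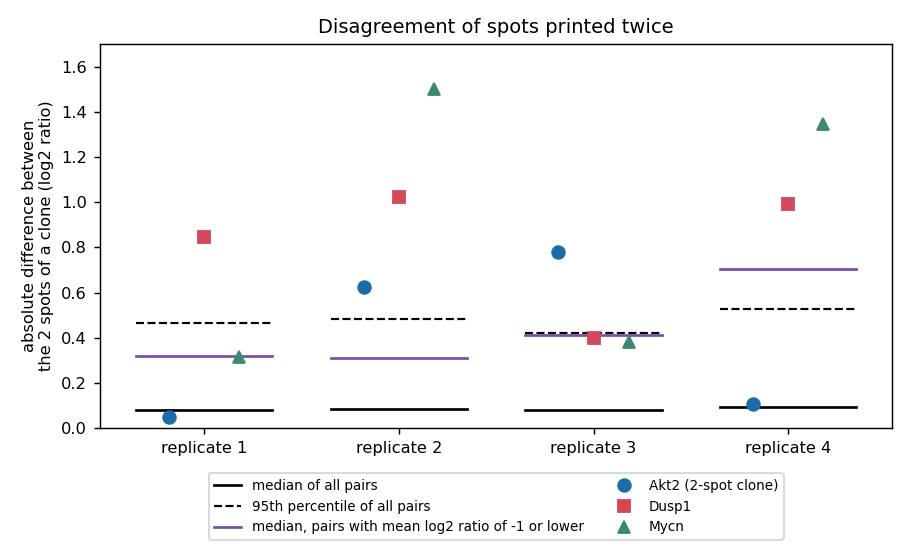
Absolute difference in log2 ratio between the 2 spots of a clone (y axis) on each array (x axis) for Akt2, Dusp1 and Mycn, with the median and the 95th percentile of all pairs and the median of pairs with a mean of -1 or lower. Dusp1 lies above the 95th percentile on replicates 1, 2 and 4 and Mycn on replicates 2 and 4, at up to 1.50.

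The members lay in different places on the slide. In the layout inferred from the values, the spots of Dusp1 and Mycn lay in the first block of the left column, those of Id4 and Nab2 in the right column at the second row of blocks, and those of Akt2 in the right column at the fourth. Each left block had a higher median ratio than the right block beside it on every array, except in the first row on replicate 2 (0.0093 against 0.02), and 28.7% of the 129 clones at or below -1 lay there against 50.7% of all tested clones. Dusp1 and Mycn stood against that trend. The local level, a smooth surface through the spots, was 0.37 and 0.34 at the spots of Dusp1 and 0.27 and 0.32 at those of Mycn, so that their means moved to -2.02 ± 0.38 and -1.52 ± 0.40 once it was subtracted. None of the measured neighbours of these 4 spots, or of the spots of the lower Akt2 clone, had a lower mean. At the first spot of Mycn, however, the lowest neighbour mean was close, at -1.26 against -1.28. On replicate 2 the ratio was below -1 at 3 of 16 neighbours of that spot. This was so at 4 of 16 neighbours of the second spot of the lower Akt2 clone, and at 1 neighbour of each of the other spots. The local level was -0.34 at Id4, -0.15 at Nab2, -0.04 and -0.16 at the lower Akt2 clone and -0.24 at the other.

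**Figure D3:**
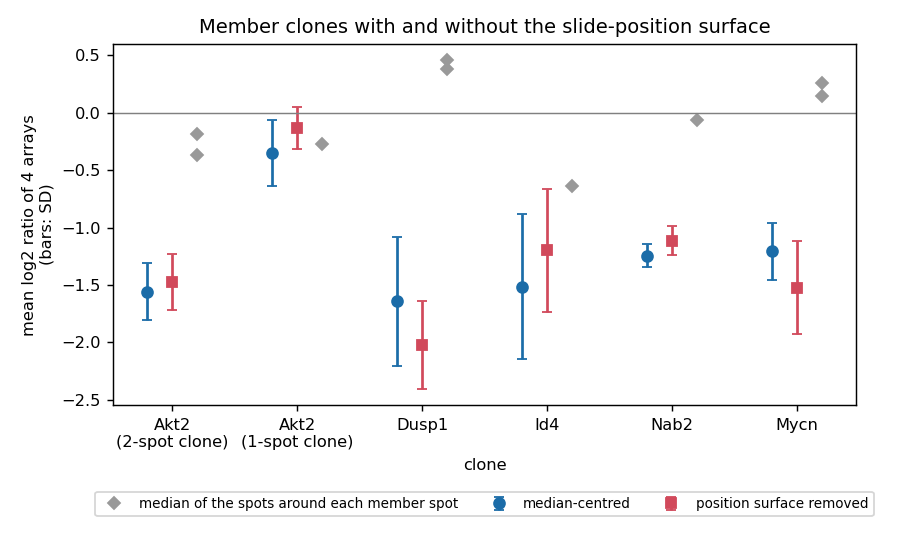
Mean log2 ratio of the 4 arrays with SD bars (y axis) for each clone (x axis), centred on array medians (circles) and with the position surface removed (squares); diamonds are the median of the surrounding spots, 1 per member spot, centred with the surface kept. Dusp1 and Mycn are lower without the surface (-2.02 and -1.52) and Id4 is higher (-1.20).

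The clones with the most similar ratios over the 4 arrays were found by Euclidean distance in log2 units among the other 2706 tested clones with 1 gene symbol, as a description of 4 arrays. This distance counts the level of the ratio as well as its changes between arrays. The members were picked for low levels, so nothing is read from a member that lies near another. Nab2 and Mycn were among each other's 3 nearest at 0.29, and both had Dennd10 near, at 0.27 and 0.29. With the position surface removed, Nab2 and Mycn lay further apart on replicates 1, 3 and 4. Nab2 was then at -1.25, -1.04, -1.19 and -0.98 on replicates 1 to 4, and Mycn at -1.74, -0.92, -1.77 and -1.66. The values of Mycn are also means of spots that disagreed widely on replicates 2 and 4. Pdcl3 was the nearest to Nab2 at 0.20 and Mtmr4 the third nearest to Mycn at 0.42. The nearest to Dusp1 was the lower Akt2 clone at 0.80, followed by Pum2 at 0.84 and Scaf8 at 0.87, so Dusp1 had no close match. The nearest to the lower Akt2 clone were Rab38 at 0.46, Add1 at 0.53 and Ralgdsl1 at 0.54, and to the other Akt2 clone Usp48 at 0.08, Hils1 at 0.12 and Serpinb12 at 0.20. The nearest to Id4 was Senp6 at 0.29, which was at -1.52, -0.93, -2.37 and -1.02 and whose spot lay 1 column and 1 row from that of Id4 in the inferred layout. Cdkn1b, which encodes a cell cycle inhibitor, followed at 0.68 in the same block, and Mplkip at 0.83 in another.

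Other genes of the pathways were taken from 7 lists of 297 genes in all, the members left out, and tested at gene level with limma over all 2644 measured genes. Of these genes 452 were called positive (17.1%) and 440 negative (16.6%), and with the position surface removed 111 (4.2%) and 357 (13.5%). Over the lists together 83 genes were measured, of which 15 were called positive, 15 negative and 53 neither, which is near the background. Their median was 0.06 against 0.01 over all genes. A mean of -1 or lower was found for 3 of the 83 listed genes and for 52 of all 2644 genes. With the surface removed 3 were positive and 17 negative, and 3 and 14 were called both ways. Without replicate 2 the positive calls were 23, without replicate 3 they were 5 and without replicate 4 they were 8, and the negative calls were 9 without replicate 3. Calls over all clones moved the same way. The 638 positive calls became 872, 99 and 134 without replicates 2, 3 and 4, and the 706 negative calls became 323 without replicate 3.

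Of 14 measured genes of insulin and PI3K-Akt signalling, 3 were called positive, 2 negative and 9 neither, with a median of 0.05. Akt1, the closest relative of Akt2 measured, was at -0.63, -1.004, -0.52 and -0.11. All arrays were negative, and the mean of -0.57 ± 0.37 (SD, n = 4) passed the test (limma adjusted p = 0.0203). It was lower with the position surface removed, at -0.79 (adjusted p = 0.00750), and was no longer called when replicate 1 (-0.55, adjusted p = 0.0818) or replicate 3 (-0.58, adjusted p = 0.0591) was left out. Gsk3b, a kinase that Akt inhibits, was at -0.41 ± 0.20 (adjusted p = 0.0245), and was not called without replicate 1, 3 or 4 (-0.32, -0.48 and -0.39) or with block medians removed (-0.23). Pdpk1, the kinase that phosphorylates Akt in its activation loop, was called positive at 0.53 ± 0.19 (limma adjusted p = 0.0104), and was not called with the surface removed (0.23) or with block medians removed (0.32). Eif4ebp1, a translation repressor downstream of mTOR, was at 0.62 ± 0.19 (adjusted p = 0.00661) and was still called at 0.32 with the surface removed. Genes above and below Akt2 in the pathway thus had ratios of both signs.

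Of 15 measured genes of the MAP kinase cascades, 2 were positive, 4 negative and 9 neither, with a median of -0.14. Map3k7, the TAK1 kinase of stress and cytokine signalling, was at -0.76 ± 0.42 (SD, n = 4, limma adjusted p = 0.0106), and Map4k4, a kinase upstream of JNK, at -0.59 ± 0.17 (adjusted p = 0.00670). Both were called with the surface removed and without each single array. Mapk7, the kinase ERK5, was at 0.41 ± 0.17 and Mapk9, the kinase JNK2 that Dusp1 can dephosphorylate, at 0.37 ± 0.18 (adjusted p = 0.0202 and 0.0283). Their calls ended with the surface removed (0.18 and 0.14), without replicate 3 (0.44 and 0.40) and without replicate 4 (0.33 and 0.35), and that of Mapk9 also with block medians removed (0.26). Of the phosphatase list, 2 genes were measured and neither was called. Dusp6, the phosphatase of ERK, was at -0.26, -0.08, -0.32 and 0.04, with a mean of -0.16 ± 0.17 (limma adjusted p = 0.266). With the surface removed it was at -0.43 and called negative (adjusted p = 0.0203), and with block medians removed at -0.27 (adjusted p = 0.0466). Ptpn5, a tyrosine phosphatase of MAP kinases, was at -0.33 ± 0.32 (adjusted p = 0.0841).

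The list that holds the partners of Nab2 and the immediate early genes had 17 measured genes, of which 2 were positive, 4 negative and 11 neither, with a median of 0.14. Egr1, the factor that Nab2 represses, was at -0.08, -0.76, -0.04 and 0.10. Replicate 2 alone stood away from 0, and the mean of -0.20 ± 0.39 (SD, n = 4) was not called (limma adjusted p = 0.326). Egr4, of the same family, was at 0.40, -0.76, 0.60 and 0.58, a mean of 0.20 ± 0.65 that was not called (adjusted p = 0.492) but was at 0.53 and called without replicate 2 (adjusted p = 0.00714). Elk3, an ETS factor that acts with SRF at immediate early genes, was at -1.09, -1.12, -1.38 and -2.27, as low as the members, and its mean of -1.46 ± 0.55 passed the test (adjusted p = 0.00338). Cebpd, an acute phase transcription factor, was at -0.61 ± 0.12 (adjusted p = 0.00520), and both calls held with the surface removed and without each single array. Cebpb, of the same family, was at 0.43 ± 0.29 (adjusted p = 0.0314) and Srf at 0.32 ± 0.14 (adjusted p = 0.0397). Their calls ended with the surface removed (0.05 and 0.22), without replicate 1 (0.42 and 0.35), without replicate 3 (0.36 and 0.37) and without replicate 4 (0.37 and 0.30) and with block medians removed (0.22 and 0.18), and that of Srf also without centring (0.30).

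Of 13 measured helix-loop-helix factors and Id proteins, 2 were positive, 1 negative and 10 neither, with a median of 0.06. Of the relatives of Id4, Id1 and Id3 were measured. Both were nearer to 0 than Id4, but Id4 was picked for its low ratio, so nothing is read from that. Id1 was at -0.74, -0.29, -0.09 and -0.28, negative on every array, with a mean of -0.35 ± 0.27 (SD, n = 4) that missed the threshold (limma adjusted p = 0.0572) and passed it with the surface removed (-0.40, adjusted p = 0.0471), without centring (-0.37, adjusted p = 0.0448) and with array weights (-0.28, adjusted p = 0.0476). Without replicate 1 it was at -0.22 (adjusted p = 0.198). Id3 was at -0.05, 0.27, 0.15 and -0.14, on both sides of 0, with a mean of 0.06 ± 0.19 (adjusted p = 0.697) that was at -0.014 without replicate 2. Bmal1, a factor of the circadian clock, was the negative call at -0.60 ± 0.08 (adjusted p = 0.00478) and held in every alternative tried. Hes1, a repressor in the Notch pathway, was at 0.47 ± 0.10 and Myog, a muscle regulator, at 0.45 ± 0.18 (adjusted p = 0.0101 and 0.0163). Both lost their calls with the surface removed (0.18 and 0.24) or without replicate 3 (0.46 for each), and Myog also without replicate 4 (0.45).

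For Mycn, 2 genes of the MYC and MAX network were measured, and neither Myc, Mycl nor Max was among the named clones. Mxi1, which competes with MYC proteins for MAX, was at 0.37, 0.71, 0.77 and 0.79, positive on all arrays, with a mean of 0.66 ± 0.19 (SD, n = 4, limma adjusted p = 0.00538). With the surface removed it was at 0.29 and not called (adjusted p = 0.0662). Of 20 measured textbook MYC targets, 5 were positive, 4 negative and 11 neither, with a median of 0.02. Polr1b, a subunit of RNA polymerase I, was at -0.26, -2.31, -1.31 and -1.38, a mean of -1.32 ± 0.84 (adjusted p = 0.0108) that held in every alternative and was -0.98 without replicate 2. Cdkn1b, which MYC represses, was at -1.25 ± 0.47 (adjusted p = 0.00353), while the mitochondrial chaperonin gene Hspe1 was at 0.78 ± 0.12 and the lactate dehydrogenase gene Ldha at 0.73 ± 0.09 (adjusted p = 0.00338 for each). With the surface removed Hspe1 was at 0.40 and Ldha at 0.38, both still called. The targets thus showed ratios of both signs. As the list includes Cdkn1b, which MYC represses, nothing about Mycn is read from these signs.

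**Figure D4:**
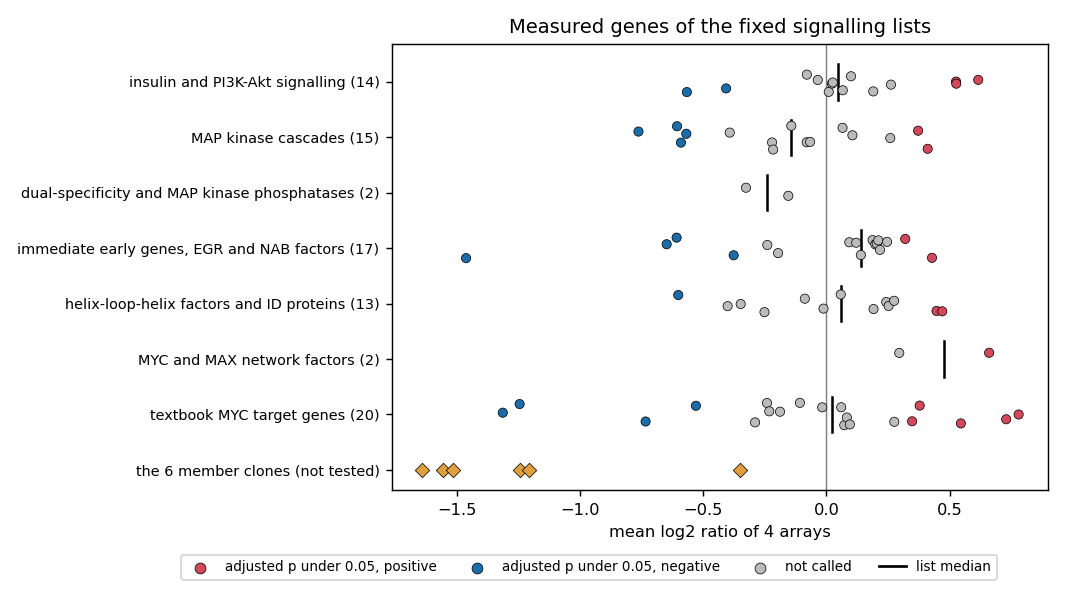
Mean log2 ratio of 4 arrays (x axis) of each measured gene of the 7 lists (rows, number of genes in brackets), red or blue where limma's adjusted p was under 0.05 and grey otherwise, with list medians as black bars and the 6 member clones as diamonds. Of the listed genes, Elk3, Polr1b and Cdkn1b reach -1, and 80 of 83 lie above it. Of all 2644 measured genes, 52 have a mean of -1 or lower. The members were picked for low ratios, so nothing is read from the 5 of 6 clones that lie below -1.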

How the data were processed

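The members and the gene lists were chosen with earlier results of these data known, as were the alternatives. The authors deposited values with no named unit, read here as log10 ratios, since the antilog in thousandths was whole (within 0.02) for about 99.99% or more of the spots of each array. How the arrays were scanned, background-corrected and normalized is not given in the sources used here. The most repeated value of each array (1171 to 1189 spots) was read as missing. Values were converted to log2, spots of a listed clone averaged, and arrays centred on their medians. Gene names came from an older platform annotation (5169 probes with 1 symbol, 83 with several, 2436 unlisted), updated by Entrez number to GRCr8. limma 3.58.1 in R 4.3.3 tested the mean of 4 arrays against 0 (lmFit, eBayes, Benjamini-Hochberg, threshold 0.05, two-sided), and the code was tested on simulated data. The number of arrays limits the precision. The layout of 8 blocks of 31 by 31 spots was inferred, and the position surface is a robust loess fit (span 0.05, degree 1, 4 iterations). Genes named are all members, their closest relatives, the 2 smallest p of each sign among calls in each list and the 3 nearest patterns. Ptpn5 and the remaining calls were added after their values were seen. Other alternatives were no centring, quantile normalization, block medians, each array left out, missing codes kept, values on 3 arrays, a robust prior, array weights, spots as rows and a 2-fold minimum.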

Additional observations from a re-analysis of the deposited data

Results flagged for a closer look

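Among 47 sets of 4 values examined for an array that stood apart (the clones, the spots and the named genes), 1 did. Egr4 was at -0.76 on replicate 2, far from the other 3 arrays, with a mean of 0.20 (log2). Chance marks about 1 set in 20, and no cause was tested.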

How the results depend on the processing

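All 5 low clones kept a negative mean in each alternative run on them, as did the Akt2 clone with 1 spot. Of 54 such values, 50 moved by less than the SD between arrays and 4 by more. The mean of Nab2, whose SD was small, was -1.11 with the position surface removed, -1.12 with block medians removed and -1.14 with missing codes kept, and that of Mycn was -1.52 with the surface removed. The clone counts moved more. Positive calls were 134 with the surface removed, 380 with block medians removed and 1148 with array weights, and 99 to 872 with an array left out; negative calls were 1211 with array weights and 323 to 895 with an array left out. At a minimum of 2-fold they were 12 and 124. In the signalling lists, positive calls were 3 with the surface removed, 25 with array weights and 5 to 23 with an array left out. Negative calls in the lists were 17 with the surface removed, 18 with block medians removed and 18 with array weights. They were 9 to 15 with an array left out. Id3 ran from -0.014 to 0.12 with an array left out, the first without replicate 2. A fit of 3 arrays has less power, and the cause of the other shifts was not tested. Without intensities, signal over background could not be examined. No paired analysis was possible because there is 1 group of arrays.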

Other observations

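The remaining called genes of the lists are given for completeness. On the negative side, Fosl2, a partner of Jun in AP-1, was at -0.65 ± 0.20 (SD, n = 4) and Map2k6, the kinase that activates p38, at -0.57 ± 0.28, and both calls held in every alternative tried (limma adjusted p = 0.00591 and 0.0127). Nolc1, a nucleolar phosphoprotein, was at -0.74 ± 0.50 and lost its call without replicate 1 (-0.67) or 3 (-0.72). Ubtf, an activator of RNA polymerase I, was at -0.53 ± 0.28 and lost it without replicate 3 (-0.47). Rps6ka5, the kinase MSK1, was at -0.61 ± 0.48 and lost it without replicate 1, 3 or 4 (-0.64, -0.58 and -0.41) and with the position surface removed (-0.75). Fosl1 was at -0.38 ± 0.28, and lost its call without replicate 1, 2 or 3 (-0.30, -0.35 and -0.35) and with quantile normalization (-0.40), and kept it at -0.66 with the surface removed.

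On the positive side, Odc1, the first enzyme of polyamine synthesis, was at 0.55 ± 0.28 (SD, n = 4), Bad, a promoter of apoptosis that Akt inactivates, at 0.53 ± 0.26, Nme2, a nucleoside diphosphate kinase, at 0.38 ± 0.16 and Ran, the GTPase of nuclear transport, at 0.35 ± 0.24. None of these 4 was called with the position surface removed (0.27, 0.24, 0.17 and 0.03) or without replicate 3 (0.56, 0.55, 0.41 and 0.28). Nme2 and Ran also lost their calls without replicate 1 (0.43 and 0.35) or 4 (0.36 and 0.31), Ran also without centring (0.32), and Odc1, Nme2 and Ran with block medians removed (0.43, 0.26 and 0.14).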
